A study of Mus musculus with 8 samples.

Results

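The genes described here are the integrin chains, the laminin chains, the nidogens Nid1 and Nid2, perlecan (Hspg2) and dystroglycan (Dag1). They were chosen by a pattern over gene symbols, which takes integrin alpha chains with a plain number or 1 of the letters v, e, l, m, x and d. It leaves out Itga2b, the platelet alpha chain, which was at 8.18 to 16.8 CPM and stands here among the platelet markers. For each symbol the row of the largest total was kept, and no difference between groups entered the choice. The rule found 40 of the 22869 symbols, of which 38 passed a filter on low counts, as did 14940 symbols in all. RNA came from the atrioventricular (AV) cushions, the swellings of the heart canal from which valves and septa form, and from the ventricles. The donors were C57BL/6 mice, taken at E12.5, a stage counted in days of embryonic development. Each of the 4 groups, wild type (WT) cushion, mutant cushion, WT ventricle and mutant ventricle, held 2 libraries of total RNA depleted of ribosomal RNA. The mutant samples carry the genotype label NfatC1+/-; KLF2fl/fl, that is, floxed alleles of Klf2, the gene of a transcription factor of endothelial cells that responds to blood flow. The labels do not state whether the Nfatc1 allele is a loss of that gene or carries a recombinase, which cells would express it, or whether the samples labelled wild type also have floxed Klf2 alleles, although the design text names animals with only that allele pair beside the mutants. Nor do they say if a group's libraries are from different embryos, litters or pools. The spread behind each p-value is therefore that of these libraries and may be technical.

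Integrins are cell surface receptors made of an alpha and a beta chain, and the alpha chain largely sets which matrix protein is bound: collagens, laminins, or fibronectin and other proteins with the short RGD recognition motif. Laminins are cross-shaped trimers of an alpha, a beta and a gamma chain that polymerise into the basement membrane, where nidogens and perlecan join them to type IV collagen and where integrins and dystroglycan anchor cells to the sheet. In the AV canal the endocardium and the myocardium each rest on such a sheet, on either side of the matrix into which endocardial cells move when they become cushion mesenchyme.

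Library totals, with 1 row per symbol, lay between 18955733 and 26579215 counts, and levels are given as CPM, which are gene counts per unit of TMM-scaled library size. Klf2 was at 9.19 to 17.3 CPM in the 4 WT libraries and at 0.625 to 1.96 CPM in the 4 mutant libraries, with no overlap between the genotype labels. The log2 difference of mutant against WT was -3.54 ± 0.42 (SE) in cushion and -3.93 ± 0.45 in ventricle. By edgeR's adjusted p even Klf2 did not pass (0.145 in cushion and 0.269 in ventricle), and it passed with the replicate number in the fit (2.86e-05 and 4.56e-05). Summed over 12 markers, cushion mesenchyme RNA was at 7164 to 15391 CPM in cushion libraries and at 1255 to 3888 CPM in ventricle libraries. The 12 cardiomyocyte markers summed to 32409 to 49610 CPM in cushion libraries and to 49647 to 107580 CPM in ventricle libraries. Heart muscle RNA was thus present in both tissues. Ttn alone gave 12546 to 29509 CPM of these sums in cushion and 10596 to 70715 CPM in ventricle libraries. Between WT tissues 10 of the 12 had lower and 2 higher estimates in cushion (median log2 difference -0.89). The 12 markers of endothelium and endocardium summed to 1496 to 1846 CPM in cushion libraries and to 1947 to 2506 CPM in ventricle libraries. Npr3 alone was at 198 to 400 CPM in cushion and at 587 to 703 CPM in ventricle libraries. Between WT tissues 8 of these 12 had lower and 4 higher estimates in cushion. In a bulk sample, fewer cells of a type and less RNA per cell cannot be told apart. On the first principal component mutant cushion replicate 2 lay at -22.82, nearer to the ventricle than the other cushion libraries, at -54.93 to -46.32. Libraries with replicate number 1 also differed together from those with number 2 in all 4 groups, and values from a fit with that number as an added term (the replicate block) are given for the members described.

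**Figure D1:**
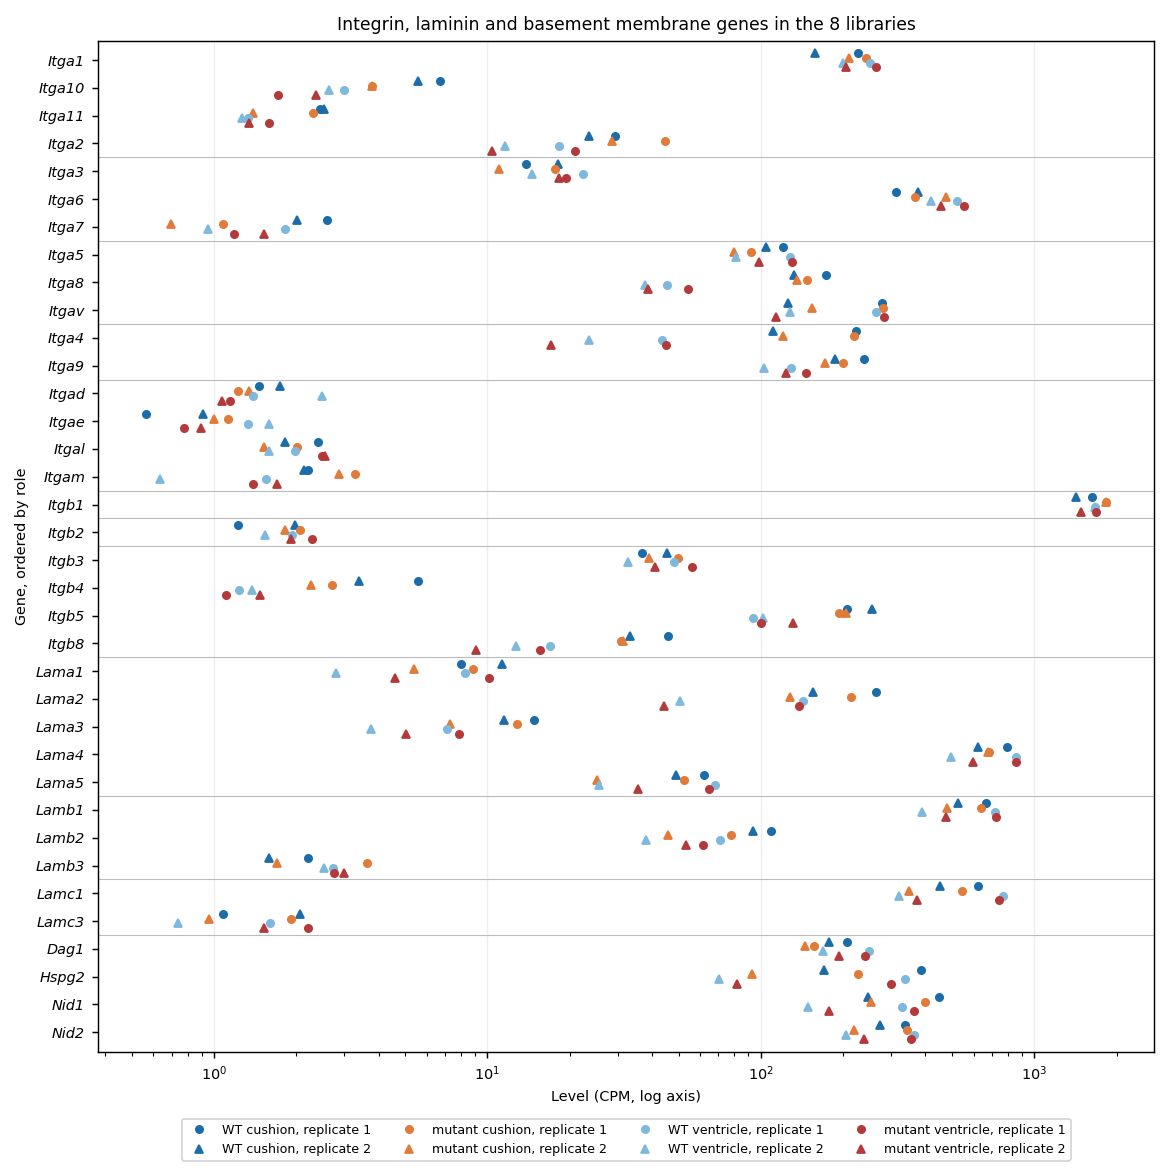
Level in CPM (log axis) of 36 members with a mean of at least 1 CPM over the libraries, in each of the 8 libraries, ordered by role; circles are replicate 1, triangles replicate 2, and colours the 4 groups. Itga8, Itga4 and Itgb8 show the cushion libraries to the right of the ventricle libraries, and for Hspg2 the triangles lie to the left of the circles in each group.

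Compared per kilobase (kb) of the longest annotated transcript, the beta chain Itgb1, the partner of most alpha chains, led the set at a mean of 433 CPM per kb over the 8 libraries. The chains that build the common vascular and muscle laminins followed at a distance: Lama4 at 116, Lamb1 at 99.7 and Lamc1 at 68.4 CPM per kb. Among alpha chains, the laminin receptor chain Itga6 was highest at 101 CPM per kb. Itgav, which binds RGD proteins, stood at 28.8, the fibronectin receptor chain Itga5 at 23.6, and Itga9, which binds tenascin C among others, at 23.1 CPM per kb. Of the linker and anchor genes, Nid2 was at 59.7, Nid1 at 48.6, Dag1 at 33.9 and Hspg2 at 14.6 CPM per kb. Epithelial laminin chains were low, with Lama3 at 0.832 and Lamb3 at 0.516 CPM per kb. The integrin chains of leukocytes (Itgad, Itgae, Itgal, Itgam and Itgb2) lay between 0.266 and 0.621 CPM per kb. Itgax, with 1 to 8 reads per library, and Itgb7, with 4 to 13 reads, failed the filter. Itgb6, with 0 to 15 reads per library, passed it at a mean under 1 CPM.

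The comparison of WT cushion with WT ventricle asks which receptors and matrix chains distinguish the tissue that forms valves from the chamber wall. 8 members were called by edgeR's quasi-likelihood test with Benjamini-Hochberg adjustment at 0.05. Of these, 7 were integrin chains that were higher in cushion: the alpha chains Itga4, Itga8, Itga9 and Itga10, and the beta chains Itgb4, Itgb5 and Itgb8, with log2 differences between 0.88 and 2.32. These 8 are 21.05% of the 38 members tested, beside 23.1% of all 14940 genes, so the share of members that differed was close to the background of this comparison. Of all genes called, 1861 were higher and 1591 lower in cushion. In the fit with the replicate block the count was 16 (42.11%, beside 41.4% of all genes). Of these, 14 were higher in cushion (36.84% of members, beside 21.2% of all genes) and 2 lower (5.26%, beside 20.1%). The calls that follow with a library left out are given without the share of all genes. Without WT cushion replicate 1, or without WT ventricle replicate 2, the count was 3, and of the integrin chains Itga8 and Itgb5 were called both times.

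Among the chains that bind fibronectin and related RGD proteins, Itga8, a partner of Itgb1 that binds nephronectin and fibronectin, was at 173 and 133 CPM in WT cushion and at 45.3 and 37.7 CPM in WT ventricle. In mutants it was at 148 and 136 CPM in cushion and at 54.1 and 38.5 CPM in ventricle. All 4 cushion libraries thus lay above all 4 ventricle libraries, and the WT and mutant ranges overlapped within each tissue. The log2 difference between WT tissues was 1.88 ± 0.20 (SE, adjusted p = 0.001). Its relatives Itga5 and Itgav did not pass. Itga5 was at 121 and 104 CPM in WT cushion and 128 and 80.8 CPM in WT ventricle, which overlap, with a log2 difference of 0.11 (95% interval -0.42 to 0.63), or -0.27 with an offset for GC content and transcript length. In mutants its cushion libraries, at 92.0 and 79.8 CPM, were both below its ventricle libraries, at 130 and 98.2 CPM. Itgav spanned 125 to 281 CPM in cushion and 113 to 282 CPM in ventricle.

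Itga4 and Itga9 form a pair of related alpha chains, of which Itga4 binds Vcam1 and fibronectin. Itga4 was at 222 and 111 CPM in WT cushion, 219 and 121 CPM in mutant cushion, 43.4 and 23.5 CPM in WT ventricle, and 45.1 and 17.1 CPM in mutant ventricle. The lowest cushion library was above the highest ventricle library, and replicate 1 was above replicate 2 in each group. The log2 difference in WT was 2.32 ± 0.64 (SE), the largest of the set, and its adjusted p was 0.049, just under the threshold. With the replicate block its adjusted p was 2.68e-08, and it ranged from 3.91e-13 to 0.214 over the 24 other settings. The call was lost without any of WT cushion replicate 1 (0.214) or 2 (0.0966), mutant cushion replicate 1 (0.0722) or 2 (0.0729), and WT ventricle replicate 1 (0.0629) or 2 (0.168), and also with no filter on low counts (0.107) and in a fit to the WT groups alone (0.0747). Itga9 was at 238 and 187 CPM in WT cushion and at 129 and 102 CPM in WT ventricle, with a log2 difference of 0.88 ± 0.18 (SE, adjusted p = 0.012). Its mutant cushion libraries, at 200 and 171 CPM, were also above the mutant ventricle libraries, at 146 and 124 CPM. That call was lost without WT cushion replicate 1 (adjusted p = 0.077) and without WT ventricle replicate 2 (0.103), with a range of 6.20e-07 to 0.103 over all other settings.

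Of the collagen receptors, Itga10, known from cartilage, was called at a low level: 6.71 and 5.58 CPM in WT cushion against 2.99 and 2.64 CPM in WT ventricle, a log2 difference of 1.12 ± 0.25 (SE, adjusted p = 0.017). It did not pass without WT cushion replicate 1 (adjusted p = 0.0934), WT ventricle replicate 1 (0.0558) or WT ventricle replicate 2 (0.118, the highest over all settings), nor with the replicate block without WT cushion replicate 1 (0.0509) or WT ventricle replicate 2 (0.0636). Itga2 was at 29.3 and 23.4 CPM in WT cushion and at 18.2 and 11.6 CPM in WT ventricle. Itga11, a collagen receptor of mesenchyme, was at 2.44 and 2.53 CPM in WT cushion and at 1.34 and 1.27 CPM in WT ventricle. For Itga2 and Itga11 the WT tissues did not overlap either, and both passed with the replicate block (adjusted p = 0.00085 and 0.033, against 0.174 and 0.075 without it). Itga2 also passed with the offset (0.0402) and in a fit to the WT groups alone (0.0342), and its adjusted p ranged from 0.000109 to 0.494 over all settings. Itga11 was lost with block and offset together (0.14) and with the block without any 1 of the 4 WT libraries (0.0551 to 0.262). Itga1, the most abundant collagen receptor chain here, lay between 157 and 243 CPM in cushion and between 201 and 265 CPM in ventricle and overlapped between the tissues.

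The laminin receptor chains went no common way. Itga6 was at 313 and 374 CPM in WT cushion and at 521 and 420 CPM in WT ventricle, so that both WT ventricle libraries were higher. The log2 difference was -0.45 ± 0.19 (SE, adjusted p = 0.1199), and it passed with the replicate block (0.0456), but not with the block and offset (0.0629) or with the block without WT cushion replicate 1 (0.354) or 2 (0.0603) or WT ventricle replicate 1 (0.409). Itgb4, which pairs with Itga6 in epithelial anchoring junctions, was by contrast higher in cushion, at 5.59 and 3.40 CPM in WT cushion against 1.23 and 1.37 CPM in WT ventricle (log2 difference 1.78 ± 0.34 SE, adjusted p = 0.0091). That call was lost without WT cushion replicate 1 (adjusted p = 0.0555), WT ventricle replicate 1 (0.0505) or WT ventricle replicate 2 (0.0725, the highest over all settings). Itga3 lay between 11.0 and 22.4 CPM and Itga7, a muscle laminin receptor chain, between 0.695 and 2.58 CPM over the 8 libraries. Neither passed with or without the block. With the block and offset together Itga3 passed as lower in cushion (log2 difference -0.61, adjusted p = 0.018).

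Of the beta chains that pair with Itgav, Itgb5 and Itgb8 passed in WT, and Itgb1 and Itgb3 did not. Itgb5, a vitronectin receptor chain, was at 206 and 255 CPM in WT cushion against 93.4 and 102 CPM in WT ventricle, a log2 difference of 1.24 ± 0.17 (SE, adjusted p = 0.0026). Itgb8, which with Itgav binds latent TGF-beta, was at 45.8 and 33.2 CPM in WT cushion against 16.9 and 12.7 CPM in WT ventricle, a log2 difference of 1.42 ± 0.28 (SE, adjusted p = 0.01). Both kept cushion above ventricle in the mutant libraries. The Itgb8 call was lost without WT cushion replicate 1 (adjusted p = 0.0552) and without WT ventricle replicate 2 (0.0961), the highest value over the other settings. Itgb3, the beta chain of the platelet fibrinogen receptor, lay between 36.8 and 49.7 CPM in cushion and between 32.7 and 56.1 CPM in ventricle, where the 10 platelet markers summed to 35.2 to 46.4 and 37.8 to 66.2 CPM. Itgb1 was at 1621 and 1423 CPM in WT cushion, below 1672 and 1664 CPM in WT ventricle, and at 1836 and 1833 CPM in mutant cushion, above 1682 and 1488 CPM in mutant ventricle. The tissues thus lay apart in opposite directions in the 2 genotypes, and neither difference passed. Its log2 difference was -0.13 (95% interval -0.48 to 0.21) in WT, or 0.04 with the offset, and 0.21 (95% interval -0.14 to 0.56) in mutants, and the test between them gave an adjusted p of 0.508. Of the leukocyte chains, Itgam, the alpha chain of macrophages and neutrophils, was at 2.21 and 2.14 CPM in WT cushion against 1.55 and 0.634 CPM in WT ventricle, and passed with the replicate block (adjusted p = 0.0426, against 0.107). It also passed without WT ventricle replicate 1 and no block (0.0347), and it was lost with block and offset (0.0568) and with the block without WT cushion replicate 1 (0.0942) or 2 (0.199) or WT ventricle replicate 2 (0.403). Of 11 leukocyte markers 10 had higher estimates in WT cushion (median log2 difference 0.60), with 1 called and 6 with the block. Over the list the log2 differences ran from -0.34 to 1.23, and Cd68, Mrc1 and Lyz2 overlapped between the WT tissues. The 11 markers summed to 153 and 165 CPM in the WT cushion and 138 and 149 CPM in the WT ventricle libraries. Their part in the Itgam value was not tested.

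Promoters were looked at for the members with the largest differences above, because genes that are high together in a tissue can be compared for short motifs. RefSeq promoters (build GRCm38.p6, not the mm9 build of the counts) could be matched to 25 of the 40 members, with 29 promoters. The 250 bases before the annotated start, 5′ to 3′ on the gene's strand, are given for Itga4 (chr2:79255176-79255425, plus strand), Itga8 (chr2:12301945-12302194, minus strand) and Itgb8 (chr12:119238277-119238526, minus strand), the 3 called members with the largest difference towards cushion that had a promoter in that table. Capitals mark CCACCC or its reverse complement GGGTGG, the core of the box that Krüppel-like factors bind.
Itga4: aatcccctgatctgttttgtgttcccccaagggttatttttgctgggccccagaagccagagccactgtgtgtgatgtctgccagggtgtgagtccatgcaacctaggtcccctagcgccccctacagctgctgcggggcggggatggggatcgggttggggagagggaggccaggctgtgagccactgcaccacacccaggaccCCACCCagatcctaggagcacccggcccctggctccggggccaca
Itga8: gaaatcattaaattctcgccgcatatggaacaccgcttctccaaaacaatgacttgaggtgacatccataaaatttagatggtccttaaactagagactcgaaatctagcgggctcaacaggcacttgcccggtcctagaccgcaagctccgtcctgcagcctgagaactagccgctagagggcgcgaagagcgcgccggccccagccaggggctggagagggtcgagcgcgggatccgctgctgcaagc
Itgb8: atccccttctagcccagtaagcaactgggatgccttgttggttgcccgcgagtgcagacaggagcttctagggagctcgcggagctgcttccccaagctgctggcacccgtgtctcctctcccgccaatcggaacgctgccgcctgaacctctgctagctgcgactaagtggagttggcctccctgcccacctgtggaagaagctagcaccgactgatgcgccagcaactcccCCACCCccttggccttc
The motif stood once in the Itga4 and once in the Itgb8 window and was not in the Itga8 window. On either strand it was in 12 of the 29 member promoters (41.4%) and in 28.1% of all 32851 promoters. The GATA motif AGATAA was in 1 member promoter (3.45%, beside 9.99% of all) and the NFAT motif GGAAAA in 5 (17.2%, beside 20.4% of all), and neither was in the 3 windows shown. These are matches of letters and not binding sites.

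Over both genotypes, 9 members, all of them integrin chains, had all 4 cushion libraries above all 4 ventricle libraries (23.7%, beside 16% of all genes), and the reverse held for 2.63% of members, beside 13.2% of all genes. Of the laminin chains best known from epithelia, Lama3 was at 14.8 and 11.5 CPM in WT cushion and at 7.11 and 3.75 CPM in WT ventricle, a log2 difference of 1.28 ± 0.39 (SE) with an adjusted p of 0.051, and 0.00013 with the replicate block. It passed in 16 of the 24 other settings, with adjusted p from 4.92e-06 to 0.247. Lamb3 lay between 1.58 and 3.63 CPM in cushion and between 2.53 and 2.99 CPM in ventricle.

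The abundant laminin chains overlapped between the tissues. Lama4, the alpha chain of vessel walls, lay between 622 and 795 CPM in cushion and between 497 and 861 CPM in ventricle. Its WT log2 difference was 0.06 (95% interval -0.58 to 0.70), or -0.03 with the offset. Lamb1 and Lamc1 had WT log2 differences of 0.10 (95% interval -0.66 to 0.87, or -0.08 with the offset) and -0.02 (95% interval -1.27 to 1.24), so differences of that size in either direction were not detectable with these libraries. Lama2, the alpha chain of muscle laminin, was at 263 and 155 CPM in WT cushion against 143 and 50.6 CPM in WT ventricle. Lamb2, which takes the place of Lamb1 in muscle and vessel laminins, was at 109 and 93.6 CPM against 71.1 and 38.2 CPM. The adjusted p was 0.307 and 0.103, and 0.0049 and 0.0012 with the replicate block. Lamb2 also passed without the block in DESeq2 (0.0269) and without WT ventricle replicate 1 (0.032). Nid1, at 450 and 247 CPM in WT cushion and 330 and 148 CPM in WT ventricle, overlapped between the tissues and passed with the block (adjusted p = 0.0026, against 0.517), though not with the block and without WT ventricle replicate 2 (0.0702). Nid2, Hspg2 and Dag1 passed in neither fit. Lama5, Lama1 and Lamc3 did not pass either, at 25.2 to 67.9, 2.80 to 11.3 and 0.739 to 2.21 CPM over the 8 libraries. With the block and the offset together, however, Dag1 passed as lower in WT cushion (log2 difference -0.33, adjusted p = 0.01).

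**Figure D2:**
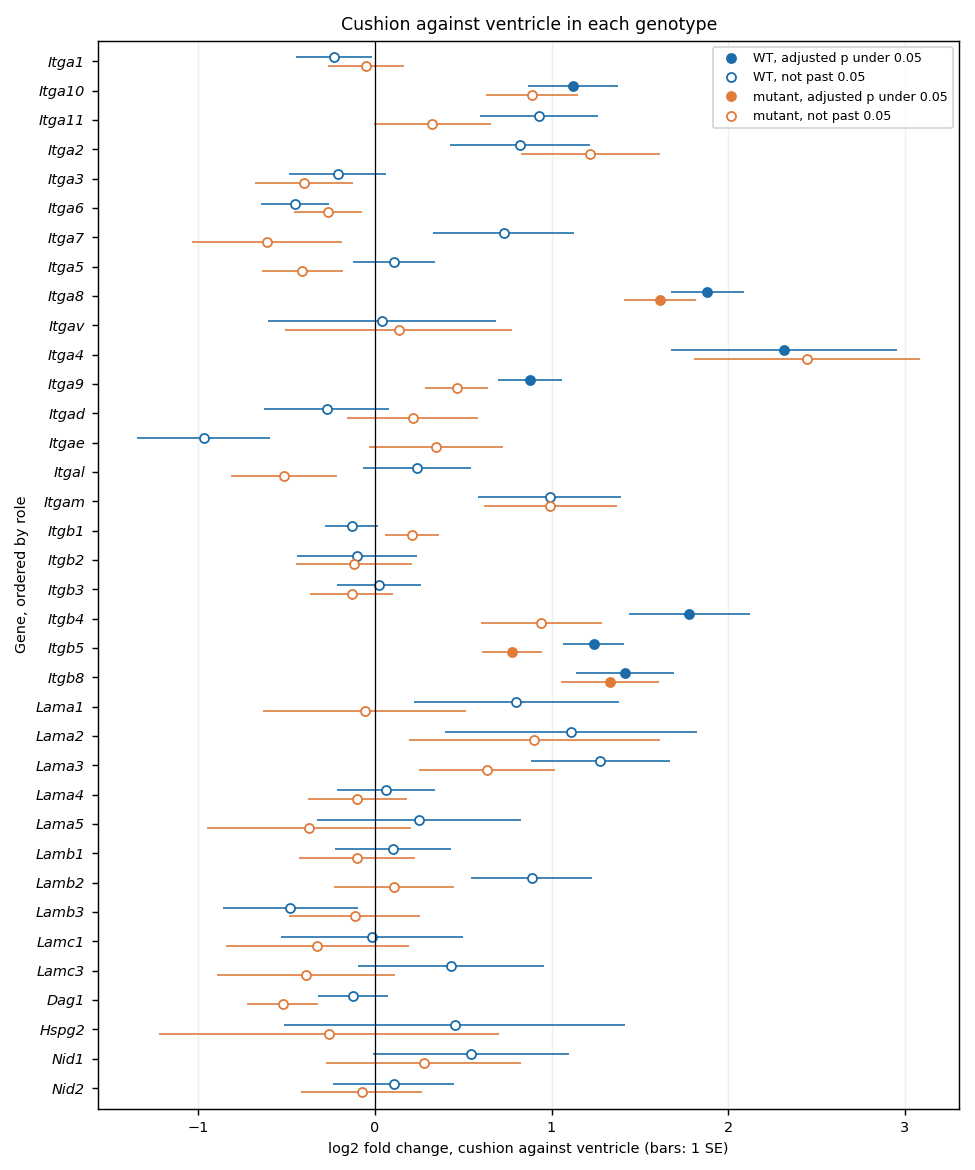
log2 difference of cushion against ventricle for the same 36 members in WT (blue) and mutant (orange) libraries, with bars of 1 SE; filled points passed an adjusted p of 0.05 in edgeR without the replicate block. Itga8, Itgb5 and Itgb8 are filled in both genotypes, and the long bars of Hspg2, Lama2 and Itgav show how far their replicates lay apart.

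In mutants the same comparison of cushion with ventricle called 4 of 38 members (10.53%), beside 9.42% of all genes, of which 920 were higher and 487 lower. Itga8 was higher in cushion by 1.61 ± 0.20 (SE, adjusted p = 0.0033), Itgb8 by 1.33 ± 0.28 (adjusted p = 0.023) and Itgb5 by 0.78 ± 0.17 (adjusted p = 0.025) on the log2 scale. The calls that follow with a library left out are given without the share of all genes. Leaving out the unusual library, mutant cushion replicate 2, left Itga8 alone called. Of these 3 integrin chains, Itga8 was called without mutant cushion replicate 1, and Itga8 and Itgb5 without mutant ventricle replicate 2. Itgb5 was also lost without mutant ventricle replicate 1 (adjusted p = 0.114) and without WT ventricle replicate 1 (0.0535) or 2 (0.0508), and its highest adjusted p over the other settings was 0.116. With the replicate block 13 members were called (34.21%, beside 23.9% of all genes). Of these, 10 were higher in cushion (26.32%, beside 13.4% of all genes). Lower ones made up 7.9% of members, beside 10.5% of all genes, with Dag1 and Itga5 among them. The largest difference of the 13 was that of Itga4, at 2.45 ± 0.64 (SE, adjusted p = 0.073, and 2.44e-08 with the block). Itga2 was higher by 1.22 (adjusted p = 0.107, and 5.42e-05 with the block), Itga9 by 0.46 (0.151 and 0.00527) and Itga10 by 0.89 (0.0692 and 0.0244). Itgam was higher by 0.99 (0.142 and 0.047), Lama2 by 0.90 (0.502 and 0.0154) and Lama3 by 0.63 (0.364 and 0.0287). Dag1 had a log2 difference of -0.52 (0.148 and 0.0072) and Itga5 of -0.41 (0.319 and 0.0299). Over the other settings these calls came and went, from 4 of 24 for Itgam to 13 of 24 for Itga2. For Dag1, which was at 157 and 145 CPM in mutant cushion and at 240 and 193 CPM in mutant ventricle, the mutant tissues did not overlap and the WT tissues did, with 206 and 178 CPM in cushion and 249 and 169 CPM in ventricle. No member's tissue difference was shown to depend on genotype: the test of that difference, which is the test of the genotype effect between tissues, called 0 members.

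The comparison of mutant with WT cushion concerns the whole mutant genotype. The Nfatc1 allele and the loss of Klf2 cannot be told apart in it. No integrin, laminin or basement membrane gene was called in it: edgeR called 0 of 38 members, and 0% of all genes, with or without a correction for GC content and transcript length, and DESeq2 also called 0 members. Klf2 itself, at 11.6-fold less, did not pass this test, so a count of 0 does not show that no member changed. With the replicate block 0 members were called, beside 0.863% of all genes. At an unadjusted p under 0.05 there were 4 members (10.53%, beside 11.4% of all genes), and 12 (31.58%, beside 23.8%) with the block. Values among those with the smallest p-values follow as a description of where the libraries of the 2 genotypes lay apart.

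Itga7 was at 2.58 and 2.02 CPM in WT cushion and at 1.08 and 0.695 CPM in mutant cushion, a log2 difference of -1.37 ± 0.41 (SE, adjusted p = 0.435). Both mutant libraries were below both WT libraries, while in ventricle the genotypes overlapped, at 1.82 and 0.95 CPM in WT and 1.18 and 1.52 CPM in mutants. Its adjusted p ranged from 0.0415 to 0.896 over the 24 other settings and was under 0.05 in 2 of them, the fits with the replicate block that left out either mutant ventricle library. Itgb4 was at 5.59 and 3.40 CPM in WT cushion and at 2.70 and 2.26 CPM in mutant cushion (log2 difference -0.86 ± 0.32 SE, adjusted p = 0.435). Itga10 was at 6.71 and 5.58 CPM in WT cushion and at 3.78 in both mutant cushion libraries (log2 difference -0.70 ± 0.25 SE, adjusted p = 0.435). These 3 low genes were thus lower in both mutant cushion libraries, at levels of a few CPM, and none passed.

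Lamb2 was at 109 and 93.6 CPM in WT cushion and at 77.8 and 45.7 CPM in mutant cushion, a log2 difference of -0.71 ± 0.34 (SE, adjusted p = 0.457, and 0.061 with the replicate block). Over the 24 other settings its adjusted p ranged from 0.0141 to 0.9 and was under 0.05 in 3, all fits with the replicate block that left out a library. Itgb1 was at 1621 and 1423 CPM in WT cushion and at 1836 and 1833 CPM in mutant cushion, a log2 difference of 0.27 with a 95% interval from -0.08 to 0.62.

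By direction, 25 of the 38 members had a lower and 13 a higher estimate in mutant cushion, with a median log2 difference of -0.15 beside -0.01 over all genes tested. The lower estimates included all 5 laminin alpha chains and all 4 of the nidogens, perlecan and dystroglycan. With the offset for GC content and length the split was 20 lower and 18 higher, the median was -0.04, 4 of the 5 laminin alpha chains and 3 of the other 4 were lower, and Lama4, Lamb1, Lamc3, Nid2, Itga3, Itga4 and Itgb5 changed sign. Across 14748 genes the log2 difference of this comparison ran with GC content (Spearman's rho -0.607 across genes, which are not independent replicates), and members had a median GC content of 52.8% against 49.6% for all genes. Between the libraries themselves, both mutant libraries lay below both WT libraries for 10 members (23.9% of all genes did so) and above them for 4 (24.5% of all genes). Markers of cell types moved in the same comparison: 11 of 12 cushion mesenchyme markers had lower estimates (median -0.38), and 8 of 11 epicardium (0.52) and 10 of 11 leukocyte markers (0.41) had higher ones. None of these markers was called, 1 mesenchyme marker was lower and 1 epicardium marker higher with the block, and their part in the members' values was not tested.

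**Figure D3:**
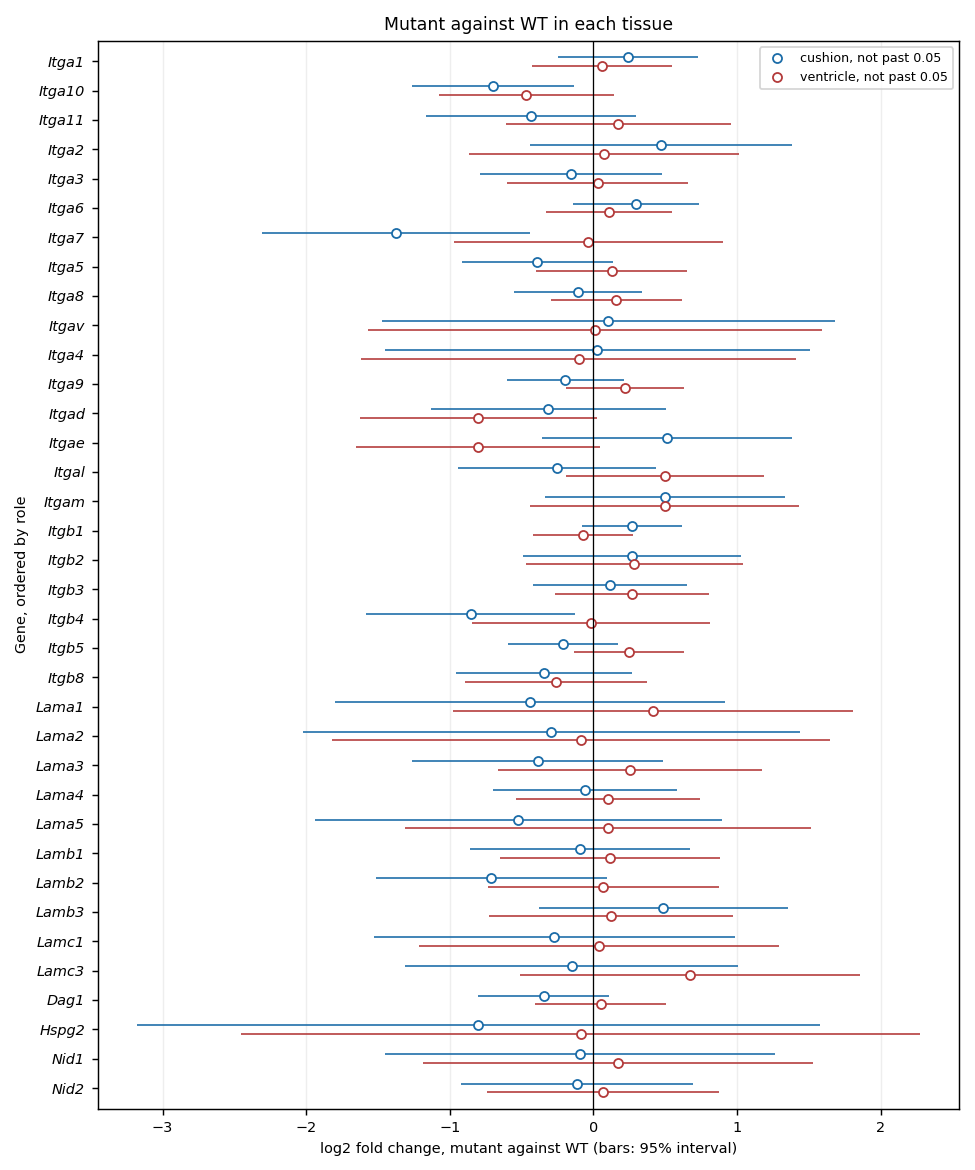
log2 difference of mutant against WT for the same 36 members in cushion (blue) and ventricle (red), with 95% intervals. No point passed an adjusted p of 0.05, and the intervals range from under 1 log2 unit in total for Itgb1 to over 4 for Hspg2.

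The comparison of mutant with WT ventricle called no member either. Again 0 members and 0% of all genes were called by edgeR, DESeq2 called 0 members, and at an unadjusted p under 0.05 there were 0 members, beside 2.29% of all genes. With the replicate block 0 members were called, beside 0.00669% of all genes, and 1 had an unadjusted p under 0.05 (2.63%, beside 7.28%). 27 members had a higher and 11 a lower estimate, with a median of 0.07 beside -0.01 over all genes. Higher estimates were also found for all 12 endothelium and endocardium markers (median 0.30), all 10 platelet (0.31) and all 11 leukocyte markers (0.22). The same held for all 6 erythroid (0.20) and 10 of 11 epicardium markers (0.16). By contrast, 10 of 12 cushion mesenchyme markers had lower estimates (median -0.18). None of these markers was called, and their part was not tested. Itgad and Itgae, leukocyte integrin chains at low levels, had the smallest p-values. Itgad was at 1.39 and 2.48 CPM in WT and 1.14 and 1.07 CPM in mutants, and Itgae, the chain by which lymphocytes bind E-cadherin, at 1.34 and 1.58 CPM in WT and 0.776 and 0.893 CPM in mutants. Both had a log2 difference of -0.80 and an adjusted p of 0.998. Itga10 came next (log2 difference -0.47), at 2.99 and 2.64 CPM in WT and 1.72 and 2.37 CPM in mutants. Itgal, with 1.98 and 1.58 CPM in WT and 2.49 and 2.55 CPM in mutants, lay the other way (0.50 ± 0.30 SE). Itgb5 and Lamc3 followed at 0.25 and 0.67, and Itga10, Itgal, Itgb5 and Lamc3 each had an adjusted p of 0.998. The genotypes did not overlap for Itgad, Itgae, Itga10, Itgal, Itga11 and Lamb3. In all, both mutant libraries lay above both WT libraries for 3 members (13.1% of all genes did so) and below them for 3 (14.6% of all genes). The 11 leukocyte markers summed to 138 and 149 CPM in WT ventricle and to 142 and 183 CPM in mutant ventricle. Well measured members bound the effect more closely: for Itgb1 the 95% interval of the log2 difference was -0.42 to 0.27, and for Itga8 -0.29 to 0.61.

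The test of whether the genotype difference itself differed between cushion and ventricle called 0 members and 0% of all genes in edgeR, with or without the replicate block, and DESeq2 called 0 members. 2 members (5.26%, beside 11.9% of all genes) had an unadjusted p under 0.05, and 10 (26.32%, beside 24.1%) with the block. For Itgae the cushion difference was 0.51 and the ventricle difference -0.80, which gives 1.32 ± 0.53 (SE, adjusted p = 0.415). For Itga7 they were -1.37 and -0.04, which gives -1.34 ± 0.58 (SE, adjusted p = 0.418). Itgb5, Itgal, Itgb4 and Itga9 followed, with differences of -0.46, -0.75, -0.84 and -0.42 and adjusted p of 0.446 to 0.499. With the offset for GC content and length these were -0.05, -0.53, -0.32 and -0.26, and Itgae and Itga7 were at 1.41 and -0.94. Across 14748 genes, which are not independent replicates, this difference ran with GC content (Spearman's rho -0.657). So did the ventricle genotype difference (0.458).

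A difference that ran through all groups was that between the replicate numbers. 19 of the 38 members were higher in replicate 1 than in replicate 2 of each of the 4 groups, beside 19.1% of all genes, and 1 member, Itgb5, was lower in each, beside 17.1%. Hspg2 was at 385 and 170 CPM in the replicates of WT cushion, 226 and 92.9 CPM in mutant cushion, 335 and 70.4 CPM in WT ventricle, and 300 and 81.5 CPM in mutant ventricle. Replicate 1 was above replicate 2 each time, on average 3.13-fold, so that for perlecan the replicates lay further apart than the tissues or genotypes. Lama2 (2.23-fold), Itgav (2.14-fold), Itga4 (2.04-fold) and Nid1 (1.90-fold) came next in that direction. Itgb1 differed by 1.07-fold and Itga6 by 0.992-fold.

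The members with the largest ratios of replicate 1 to replicate 2 have long transcripts. The 4 members with a mean ratio over 2 had transcripts of at least 7.05 kb, from Itgav to Hspg2 at 14.2 kb. Itgb6, at 0 to 15 reads per library and 4.81 kb, differed the other way (0.477-fold), and Itga1, at 11.0 kb, differed by 1.28-fold. Spearman's rho between the mean log2 ratio of replicate 1 to replicate 2 and transcript length was 0.76 across the 38 members and 0.436 across 14748 genes, given as a description, since all points share the same 8 libraries. Members as a set are long, with a median of 5.72 kb against 3.37 kb for all genes tested. The part of transcript length, RNA quality or library preparation in these replicate differences was not tested.

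**Figure D4:**
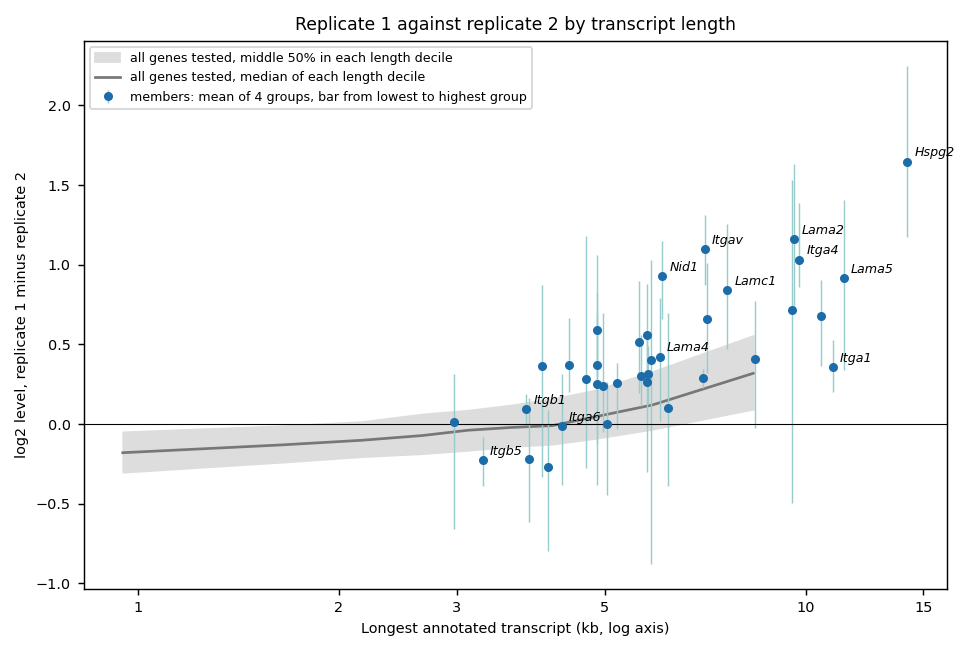
Mean log2 level of replicate 1 minus replicate 2 over the 4 groups for the same 36 members (points, with bars from the lowest to the highest group) against the length of its longest transcript in kb (log axis); the grey line and band give the median and middle 50% of all genes by decile of length. Hspg2, the longest, lies highest, Itgb1 and Itga6 lie near 0, and Itgb5 lies below 0.

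The proteins that members bind or signal through were read from lists of partner genes. Of the type IV and other basement membrane collagens with the crosslinking enzyme peroxidasin (Pxdn), 3 of 9 were higher in WT cushion than in WT ventricle (5 with the replicate block) and none lower, where 23.1% of all genes were called in either direction (41.4% with the block). Col4a3, a minor type IV collagen chain, was at 8.50 and 3.96 CPM in WT cushion and at 1.02 and 0.90 CPM in WT ventricle (log2 difference 2.69 ± 0.43 SE, adjusted p = 0.0042), and its head-to-head neighbour Col4a4 was at 8.69 and 5.34 against 2.03 and 0.95 CPM (2.23 ± 0.41, adjusted p = 0.0077). Col15a1 was at 9.44 and 13.3 against 3.90 and 1.69 CPM (2.02 ± 0.38, adjusted p = 0.0091). The main chains Col4a1 and Col4a2, by contrast, had log2 differences of -0.14 ± 0.30 and -0.15 ± 0.41, with adjusted p of 0.775 and 0.824, and took the other sign without WT ventricle replicate 1 (0.43 and 0.59). Without WT ventricle replicate 2 the calls of Col4a3 (adjusted p = 0.0606), Col4a4 (0.0744) and Col15a1 (0.064) were lost, these being their highest values over all settings. Col18a1 was at 526 and 371 CPM in WT cushion and 246 and 118 CPM in WT ventricle and passed with the replicate block (adjusted p = 0.000106, against 0.114) and in DESeq2 (0.00622). In mutant against WT cushion all 9 had lower estimates, with a median of -0.25, 0 were called, and with the offset for GC content and length 5 were lower and 4 higher. Col4a3 was at 2.35 and 1.997 CPM in mutant cushion (log2 difference to WT -1.51, adjusted p = 0.435) and Col4a4 at 2.60 and 2.82 CPM (-1.37, adjusted p = 0.435). Over the other settings their adjusted p ranged from 0.0114 to 0.885 and from 0.0175 to 0.896, and each was under 0.05 in 3 of 24.

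Among 15 tested genes of other basement membrane proteins, 2 were higher and 2 lower in WT cushion (5 and 2 with the replicate block), near the shares of all genes called, 23.1% and 41.4%. Ntn4, a netrin that binds laminin, was at 34.0 and 24.8 CPM in WT cushion and at 4.97 and 3.17 CPM in WT ventricle (log2 difference 2.85 ± 0.36 SE, adjusted p = 0.0023). Egflam, a dystroglycan ligand also called pikachurin, was at 59.7 and 41.2 against 21.8 and 20.1 CPM (1.27 ± 0.20, adjusted p = 0.0043). Smoc1 and Ntn1 were lower in cushion, by log2 differences of -1.64 ± 0.22 (adjusted p = 0.0025) and -1.57 ± 0.30 (adjusted p = 0.011). Ntn4 and Smoc1 were called in all 24 other settings. Egflam was not without WT ventricle replicate 2 (adjusted p = 0.0589), nor Ntn1 without WT cushion replicate 1 (0.078) or 2 (0.0592), nor with the block without either of those (0.0813 and 0.0867) or either mutant ventricle library (0.0746 and 0.0581).

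Of 11 tested integrin ligands outside the basement membrane, 3 were higher in WT cushion and none lower (6 and 1 with the replicate block), beside 23.1% and 41.4% of all genes called in either direction. Postn, a ligand of Itgav with Itgb3 or Itgb5 and also 1 of the cushion mesenchyme markers above, was at 4832 and 3482 CPM against 504 and 294 CPM (3.38 ± 0.40 SE, adjusted p = 0.0021). Emilin1, a ligand of Itga9 and Itga4, was at 116 and 141 against 52.0 and 35.1 CPM (1.56 ± 0.30, adjusted p = 0.013), and Vcam1, the ligand of Itga4, at 332 and 244 against 182 and 183 CPM (0.66 ± 0.18, adjusted p = 0.029). Fibronectin (Fn1) was at 3107 and 1348 CPM in WT cushion and 2075 and 566 CPM in WT ventricle, so the replicates spanned the tissues, and it passed with the block (adjusted p = 0.0022, against 0.573), though not with the block and without WT ventricle replicate 2 (0.0772). Postn was called in all 24 other settings. Emilin1 was not without WT cushion replicate 2 (adjusted p = 0.0652) or WT ventricle replicate 2 (0.0852), nor with the block without these (0.0919 and 0.0665). Vcam1 was not without WT cushion replicate 1 (0.192), WT ventricle replicate 1 (0.108) or WT ventricle replicate 2 (0.143), nor with the block without WT cushion replicate 1 (0.0634) or WT ventricle replicate 1 (0.0528).

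Inside the cell, 5 of 25 tested genes of the integrin adhesion complex were higher and 2 lower in WT cushion (8 and 5 with the block), beside 23.1% and 41.4% of all genes called in either direction. Filamin A (Flna) was at 2741 and 2147 CPM in WT cushion against 947 and 630 CPM in WT ventricle (1.63 ± 0.29 SE, adjusted p = 0.0068), and zyxin (Zyx) and paxillin (Pxn) were higher by 1.11 ± 0.21 (adjusted p = 0.0081) and 0.70 ± 0.16 (adjusted p = 0.017). Lims1, a partner of integrin-linked kinase, was lower, at -0.65 ± 0.14 (adjusted p = 0.015). Without WT ventricle replicate 2 none of these 4 was called (adjusted p = 0.0742 for Flna, 0.0846 for Zyx, 0.124 for Pxn and 0.103 for Lims1). Pxn and Lims1 were not called without either WT cushion library either (0.0601 to 0.109), nor was Lims1 with the block without WT cushion replicate 2 (0.0522) or Pxn with the offset for GC content and length (0.116). Of 21 tested genes of the dystrophin complex and of dystroglycan glycosylation, 3 were higher and 4 lower in WT cushion (4 and 8 with the block), beside the same shares of all genes. Among the lower ones were the complex members Sspn (-0.69 ± 0.13, adjusted p = 0.0077), Sgcd (-1.18 ± 0.22, adjusted p = 0.008) and Sgca (-1.11 ± 0.25, adjusted p = 0.015). Each of these 3 lost its call without some WT library, at adjusted p of 0.0519 (Sgcd, without WT cushion replicate 2), 0.0529 to 0.0572 (Sspn, without either WT cushion library or WT ventricle replicate 2) and 0.0541 to 0.0961 (Sgca, without WT cushion replicate 1 or either WT ventricle library). The summed cardiomyocyte markers were lower in the WT cushion than in the WT ventricle libraries as well, at 49610 and 32409 against 107580 and 49647 CPM. Ttn alone gave 29509 and 12546 against 70715 and 15178 CPM of these sums. The cushion mesenchyme markers were higher in WT cushion, at 15391 and 7417 against 3888 and 1564 CPM. The part of these marker differences in the tissue differences of integrins, laminins and partners was not tested.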

How the data were processed

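Gene counts from 8 libraries (2 in each of 4 groups) were deposited by the authors as 1 table of 28644 rows and 22869 symbols. Reads were aligned with Bowtie 0.12.7 to mm9, per the submitters' processing notes. The libraries were strand-specific total RNA after removal of ribosomal RNA, per the labels' protocols, and how reads were counted (program, annotation, strand) is not given in the sources used here. For the 3705 symbols on several rows the most abundant row was used, since rows of a symbol can share reads. edgeR 4.0.16 (R 4.3.3) was fitted to all 8 libraries, with TMM scaling, its filter on low counts (99.97% of counts kept) and quasi-likelihood tests of 5 contrasts, adjusted by Benjamini-Hochberg over 14940 genes. The filter can keep a gene through the group where it is high. Of 188 entries of the gene lists 183 were found in the table.

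Same-numbered libraries deviated together in all 6 pairs of groups (Pearson's r across genes of 0.341 to 0.522), so the number was taken to pair libraries, on the evidence of the data, since no label says what it stands for. Alternatives were DESeq2 1.42.0, relative log expression scaling, no filter, summed rows, each comparison's own groups, the replicate block, an offset for GC content and transcript length (a spline with 5 degrees of freedom, known for 98.15% of symbols), and leaving out each library. Members named with statistics were those called with or without the block and, where fewer than 6 were called, those with the 6 smallest p-values at a mean of at least 1 CPM. From partner lists up to 4 genes with the smallest p were named, and Col4a1, Col4a2, Fn1 and Klf2 always. Members and lists were chosen with earlier results of these data known. The fit was also run on simulated counts with changes set in mutant cushion. Those counts held no difference by tissue, replicate number, GC content or length, so that run does not bear on how these affect the calls. 1 CPM stood for at least 18.7 counts in each library. Results for 2 genes that this rule named are not reported here.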

Additional observations from a re-analysis of the deposited data

How the results depend on the processing

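In WT cushion against ventricle, 16 members (42.11%, beside 41.4% of all genes) were called with the replicate block, in place of 8. With the block and the offset for GC content and length 16 were called as well (42.11%, beside 39.6%), though not the same 16. Of these, 12 were higher in cushion (31.58%, beside 20.7%) and 4 lower (10.53%, beside 18.9%), with Dag1, Itga3 and Itgae among the lower ones. In mutants 13 (34.21%, beside 23.9%) were called with the block, in place of 4. The offset gave 9 there (23.68%, beside 14.4%), and both together gave 14 (36.84%, beside 29.7%). The fits below that leave out a library are given without the share of all genes. Leaving out a library gave 3 to 8 members in WT and 1 to 4 in mutants without the block, and 13 to 17 (13, 14, 16 or 17) in WT and 8 to 13 (8, 9, 11, 12 or 13) in mutants with it. The genotype comparison in cushion gave 0 to 2 members with the block and a library left out: 1 (Lama5) without WT cushion replicate 1, 1 (Lamb2) without mutant cushion replicate 1, and 2 (Itga7 and Lamb2) without either mutant ventricle library. The difference between the genotype effects gave 0 to 4: Hspg2, Itga5, Lama5 and Lamb2 without WT ventricle replicate 1, and 1 (Lamb2) without mutant cushion replicate 1 or mutant ventricle replicate 1. The ventricle genotype comparison stayed at 0 members in each alternative. The cause of these changes was not tested.

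No sign reversed for members called with or without the block or among the 6 smallest p-values in the comparison concerned. With the offset the sign reversed for other members, Itga5, Itgb1, Itgb3, Lama4, Lama5, Lamb1, Lamc3 and Nid2 in the WT tissue comparison among them. Among partner genes, in the cushion genotype comparison Col4a1 reached 0.2715 with the offset and 0.2774 with the block added, Col4a2 0.1598 and 0.1767. With the block Col4a1 was 0.1156 without WT cushion replicate 2 and 0.01869 without mutant cushion replicate 1, and Col4a5 was 0.04446 without WT cushion replicate 2. Without the block and leaving out a library, Col4a1 ran from -0.23 to 0.02463 and Fn1 from -1.264 to 0.08565. In the WT tissue comparison Col4a1 ran from -0.5485 to 0.4298 and Col4a2 from -0.6369 to 0.5904 when a library was left out. With the block, Col4a1 was 0.1311 and Col4a2 0.1738 without WT cushion replicate 1, and 0.2954 and 0.3737 without WT ventricle replicate 1. The following counts cover only the members, partner genes and Klf2 named with statistics, each in the comparison it was named for, over the other settings. Of these values 1577 kept their direction and side of the threshold, 69 no longer passed, 229 newly passed and 15 reversed. The other members tested, with the sign changes given above, are not in these counts. With 2 libraries in a group, the intervals given, which are from the fit without the block, do not exclude differences within them.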
